A study of Mus musculus with 10 samples.

Results

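The 8 genes described here belong to 3 mouse gene families: the HIVEP zinc finger proteins (Hivep1, Hivep2, Hivep3), the DYRK kinases (Dyrk1a, Dyrk1b, Dyrk2) and the proteins related to NHS, the gene of Nance-Horan syndrome (Nhsl1, Nhsl2). They were taken by gene symbol from a table of 48526 genes. Hivep3, Dyrk1b and Nhsl2 were chosen because their RNA was higher with the H2BE virus than with the control virus in the unstimulated neurons of these same samples. The other 5 genes, called relatives below, were added because they belong to the same families. All 8 genes passed the filter on low counts, which kept 13452 genes, and the lowest count of any of them in a tested library was 41.

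RNA was measured by polyA sequencing of primary cortical neurons from wild-type C57BL/6J mouse embryos at stage E16.5. All cultures received 0.5 µM AraC, which kills dividing cells, and a lentivirus. RNA was taken 24 h after the BDNF step. The 4 groups were H2BE virus with BDNF (H2BE+BDNF, replicates 2 and 3), H2BE virus without stimulation (H2BE, replicates 2 and 3), control virus with BDNF (BDNF, replicates 1 to 3) and control virus without stimulation (Control, replicates 1 to 3). H2BE is a variant of the core histone H2B, here driven by a constitutively active promoter in addition to the neurons' own gene. BDNF is a neurotrophin that neurons release and that signals through TrkB. Whether replicates came from separate cultures is not labelled, so p-values measure the spread between these samples, which may be technical. In bulk RNA fewer cells of a type and less RNA per cell cannot be told apart.

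Total counts ran between 5058074 and 14142545 per library. The third replicates of BDNF and Control held more counts than the first at 0 genes and were treated as subsets of them, which left 8 distinct libraries, 2 per group. Values below are counts scaled to library size (CPM), with a first replicate and its subset averaged as 1 sample, and tests used the larger library of each pair. BDNF replicates 1 and 2 were the least alike pair within a group. H2bc21, the mouse gene of H2BE, stood at 32.0 and 35.2 CPM in H2BE+BDNF and 42.7 and 35.7 CPM in H2BE, against 3.88 and 4.10 CPM in BDNF and 5.33 and 5.23 CPM in Control; RNA from the virus and from the neurons' own gene cannot be told apart in these counts. The summed level of 5 general neuron markers was 4590 to 4650 CPM in H2BE+BDNF and 4430 to 4480 CPM in H2BE. It was 4670 to 4770 CPM in BDNF and 4130 to 4190 CPM in Control, the lowest group. Over all samples microglia markers summed to 1.39 to 3.61 CPM and endothelial markers to 1.82 to 3.83 CPM. Excitatory neuron markers summed to 676 to 715 CPM in H2BE+BDNF and 705 to 754 CPM in H2BE. In BDNF they summed to 631 to 642 CPM and in Control to 637 to 653 CPM. Interneuron markers summed to 1280 to 1290 CPM in H2BE+BDNF and 1270 to 1310 CPM in H2BE. In BDNF these summed to 1450 to 1610 CPM and in Control to 1380 CPM. Over all samples astrocyte markers summed to 49.7 to 90.1 CPM and markers of dividing progenitors to 30.9 to 45.7 CPM. No marker was at 0 in every sample. Markers of the oligodendrocyte lineage summed to 81.4 to 84.9 CPM in H2BE+BDNF, 44.0 to 48.8 CPM in H2BE, 73.8 to 80.1 CPM in BDNF and 40.4 to 43.3 CPM in Control, and of the 6 genes Mbp passed the test in both BDNF comparisons. Fibroblast markers summed to 22.1 to 26.8 CPM in H2BE+BDNF, 35.7 to 47.2 CPM in H2BE, 20.5 to 29.0 CPM in BDNF and 34.2 to 42.0 CPM in Control, and of the 3 genes Dcn passed the test in both BDNF comparisons. Other markers passed with BDNF as well. Between H2BE+BDNF and H2BE these were 4 of 5 neuron markers (1 higher, 3 lower), 5 of 5 excitatory markers (2 higher, 3 lower), Gad2 (higher) and Slc32a1 (lower) of the interneuron markers, Aqp4 (lower), Aif1 (higher) and Mki67 (higher). Between BDNF and Control they were 3 of 5 neuron markers (1 higher, 2 lower), 4 of 5 excitatory markers (2 higher, 2 lower), Gad2 (higher) and 4 of 5 progenitor markers (3 higher, 1 lower). No marker gene passed the test between H2BE+BDNF and BDNF or between H2BE and Control. The part of these cells in the results was not tested.

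HIVEP proteins, also called Schnurri proteins, are very large zinc finger transcription factors that bind kappa-B sequences, the DNA elements read by NF-kappa-B. DYRK proteins are kinases that phosphorylate their own activation-loop tyrosine while they are made and then act on serine and threonine. DYRK1A acts on NFAT factors, which calcineurin activates, and its dosage matters for brain development. NHS-family proteins bind the WAVE complex, which switches on the Arp2/3 complex and branched actin at the edge of growing cells and neurites.

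The genes chosen for being higher with H2BE without BDNF, like nearly all tested genes, showed no detectable H2BE difference when BDNF was present. In neurons with BDNF, 0 of the 8 genes passed edgeR's quasi-likelihood test at a Benjamini-Hochberg adjusted p of 0.05 between H2BE+BDNF and BDNF, where 3 of 13452 genes, 0.0223%, passed. At an unadjusted p under 0.05 the count was again 0 of 8, beside 1533 of all genes, and by DESeq2 it was 0 of 8, beside 10 of all genes. The log2 fold changes of the 8 genes ran between -0.31 for Dyrk1b and 0.02 for Hivep3, with a median of -0.05 beside -0.01 over all genes. The 95% intervals reached up to 0.21 for Hivep3, 0.04 for Dyrk1b and 0.20 for Nhsl2. Without BDNF the same genes differed by 0.87, 0.87 and 0.81 between H2BE and Control. That contrast chose them, so these 3 values are a description. Without BDNF replicate 1 the count over all genes between H2BE+BDNF and BDNF was 764, and that of the 8 genes was still 0.

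**Figure D1:**
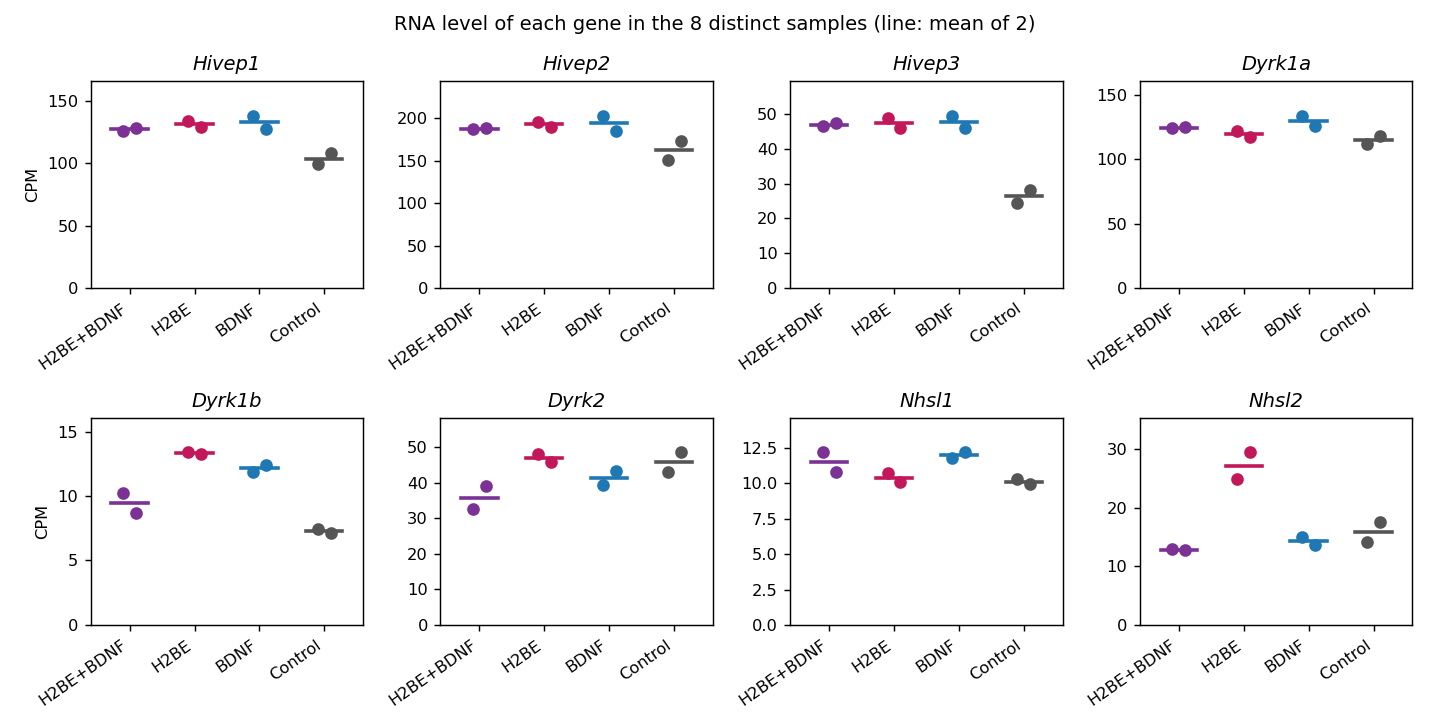
RNA level of each of the 8 genes in CPM (vertical axes, from 0) in the 2 distinct samples of H2BE+BDNF, H2BE, BDNF and Control; points are samples and lines are the mean of 2. Hivep1, Hivep2 and Hivep3 are lowest in Control, Nhsl2 is highest in H2BE, and Dyrk1b lies at 13.3 to 13.4 CPM in H2BE and 11.9 to 12.4 CPM in BDNF, above both other groups.

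The difference between H2BE and Control in unstimulated neurons was used to choose the genes, so it is given without a test. The fold changes on the log2 scale were 0.87 ± 0.10 for Hivep3, 0.87 ± 0.17 for Dyrk1b and 0.81 ± 0.14 for Nhsl2 (standard error, SE). Just outside the chosen genes came Hivep1 at 0.33 ± 0.07 and Hivep2 at 0.25 ± 0.07. The remaining relatives lay near 0, at 0.06 for Dyrk1a, 0.08 for Nhsl1 and 0.04 for Dyrk2. Hivep3, Dyrk1b and Nhsl2 were past the call threshold in the higher direction, on the contrast that chose them. Of the 5 relatives only Hivep1 was past it, beside 1.33% of all genes called higher (2.13% in either direction). Leaving out Control replicate 1 left 0 of the 8 past it, and 2 of all genes.

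**Figure D2:**
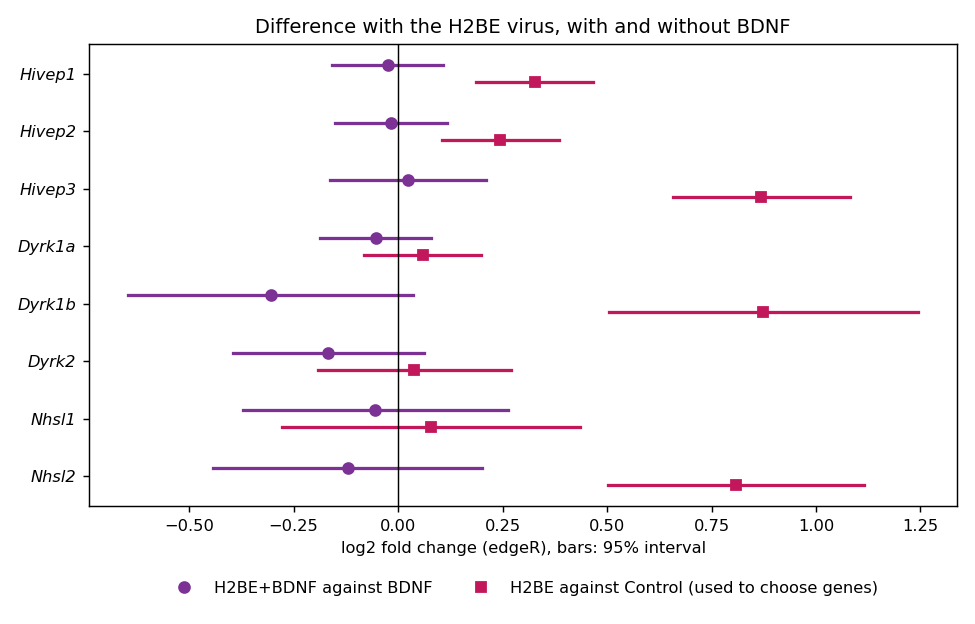
Log2 fold change (horizontal axis) of each of the 8 genes with the H2BE virus, for H2BE+BDNF against BDNF (circles) and H2BE against Control (squares); bars are 95% intervals from edgeR. With BDNF every interval includes 0, and the squares of Hivep3, Dyrk1b and Nhsl2, at 0.87, 0.87 and 0.81, are the values that chose these genes.

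Of the HIVEP family, Hivep3 had 1 low group. Hivep3 (Schnurri-3), known in mice for restraining bone formation, lies on the plus strand of chromosome 4 at chr4:119733784-120138045 (GRCm38). It had 46.4 and 47.3 CPM in H2BE+BDNF, 48.9 and 46.0 CPM in H2BE and 49.5 and 46.0 CPM in BDNF, against 24.4 and 28.2 CPM in Control. The 6 samples with the H2BE virus, BDNF or both lay within 46.0 to 49.5 CPM and did not overlap the 2 Control samples. Hivep3 was chosen on its H2BE and Control samples, so this separation is a description. How many other genes show it was not counted. Hivep1 (chr13:42052021-42192537, plus strand), the founding kappa-B binding member, had 126 and 128 CPM in H2BE+BDNF, 134 and 129 CPM in H2BE and 138 and 127 CPM in BDNF, against 99.0 and 108 CPM in Control. Its Control samples were again the lowest, by a smaller margin. Hivep2 (chr10:13966075-14151374, plus strand), Schnurri-2, whose loss in people causes intellectual disability, had 187 and 188 CPM in H2BE+BDNF, 196 and 189 CPM in H2BE and 203 and 185 CPM in BDNF, against 151 and 173 CPM in Control. Control was lowest here too, and its replicates lay farther apart than those of the other groups.

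The start regions of the 3 HIVEP genes are shown because Control was the lowest group for all 3 genes while the regions differ in base composition. The windows hold 250 bases before and 50 after a RefSeq transcript start on GRCm38.p6, written 5′ to 3′ on the gene's strand, all plus, and capitals mark matches to the GC box GGGCGG on either strand, with overlapping matches run together. The Hivep1 window, chr13:42051771-42052070, spans the outermost annotated start. The Hivep2 window, chr10:13966129-13966428, and the Hivep3 window, chr4:119814428-119814727, lie inside the annotated genes, downstream of their outermost starts.
Hivep1: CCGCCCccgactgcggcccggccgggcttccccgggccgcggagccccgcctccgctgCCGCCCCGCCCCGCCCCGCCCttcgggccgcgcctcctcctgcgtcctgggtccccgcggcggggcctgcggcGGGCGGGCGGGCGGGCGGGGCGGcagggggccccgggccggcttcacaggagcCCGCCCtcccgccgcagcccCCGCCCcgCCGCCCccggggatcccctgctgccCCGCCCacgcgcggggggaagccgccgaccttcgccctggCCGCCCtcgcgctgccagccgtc
Hivep2: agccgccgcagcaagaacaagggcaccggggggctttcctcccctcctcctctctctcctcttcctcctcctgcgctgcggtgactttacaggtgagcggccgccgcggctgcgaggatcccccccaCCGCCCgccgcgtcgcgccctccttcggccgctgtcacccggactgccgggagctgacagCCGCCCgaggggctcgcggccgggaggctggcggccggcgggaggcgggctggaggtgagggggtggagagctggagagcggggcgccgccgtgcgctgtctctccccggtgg
Hivep3: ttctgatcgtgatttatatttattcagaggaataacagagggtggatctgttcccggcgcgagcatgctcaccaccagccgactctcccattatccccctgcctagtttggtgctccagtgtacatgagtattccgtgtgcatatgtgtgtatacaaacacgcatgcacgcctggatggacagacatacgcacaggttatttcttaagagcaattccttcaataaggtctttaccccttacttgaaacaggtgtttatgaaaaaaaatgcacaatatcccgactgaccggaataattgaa
The Hivep1 window was 87.0% G or C with 48 CpG and 15 GC boxes, and the Hivep2 window was 75.3% with 35 CpG and 2 GC boxes. The Hivep3 window was 44.3% with 11 CpG and 0 GC boxes. Over 32851 such windows the median was 52.7% with 7 CpG, and 35.7% held a GC box. The kappa-B sequence, searched on both strands, had 1 match in the Hivep1 and 1 in the Hivep2 window and 0 in the Hivep3 window, and 8.46% of all windows held it. These are matches of letters only, and since the counts are per gene, the start that was used is not known.

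BDNF with the control virus went with higher RNA of the HIVEP relatives. Between BDNF and Control, Hivep1 rose by 0.30 ± 0.06 on the log2 scale (SE, adjusted p = 0.00181) and Hivep2 by 0.22 ± 0.06 (adjusted p = 0.0157), higher in 2 of 2 BDNF samples for both. These were 2 of the 5 relatives, beside 16.8% of all genes called higher, and 31.4% in either direction. Without Control replicate 1 the adjusted p was 0.0538 for Hivep1 and 0.307 for Hivep2, and without BDNF replicate 1 it was 0.0550 for Hivep2. Correcting for exon length and GC content left Hivep1 at 0.21 and brought Hivep2 to 0.06 (adjusted p = 0.481). For Hivep3, which was chosen partly for its low Control samples, the BDNF difference is a description: 0.82, with a 95% interval of 0.62 to 1.02 and 0.63 after that correction. The 2 comparisons that find these genes higher, H2BE against Control and BDNF against Control, share the Control samples.

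Under the H2BE virus BDNF gave no detectable difference in Hivep1 or Hivep2. Between H2BE+BDNF and H2BE the log2 fold changes were -0.05 for Hivep1 (95% interval -0.19 to 0.09, adjusted p = 0.603) and -0.05 for Hivep2 (-0.19 to 0.09, adjusted p = 0.655). The value of Hivep3, -0.03 (-0.23 to 0.17), rests on the H2BE samples that chose the gene and is a description. The H2BE effect with BDNF minus that without was -0.35 ± 0.09 for Hivep1 (adjusted p = 0.0743) and -0.26 ± 0.09 for Hivep2 (adjusted p = 0.166). Neither passed, and 0 of the 5 relatives did, beside 1.15% of all genes. At an unadjusted p under 0.05 the count was 2 of 5, beside 2248 of 13452 genes. By DESeq2 it was 0 of 5, beside 197 of all genes. For Hivep1 the value ran between -0.45 and -0.235 over the alternatives, with -0.40 without BDNF replicate 2 and -0.31 without BDNF replicate 1. Hivep1 passed with replicates 2 and 3 in every group (edgeR adjusted p = 0.0434). With all 10 libraries the adjusted p was 0.00991, but that fit counts the subsets as replicates. Hivep1 did not pass by DESeq2, without the filter, with the length and GC correction or with the replicate number added to the main fit. For Hivep3 the same quantity, -0.85, contains the contrast that chose it.

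**Figure D3:**
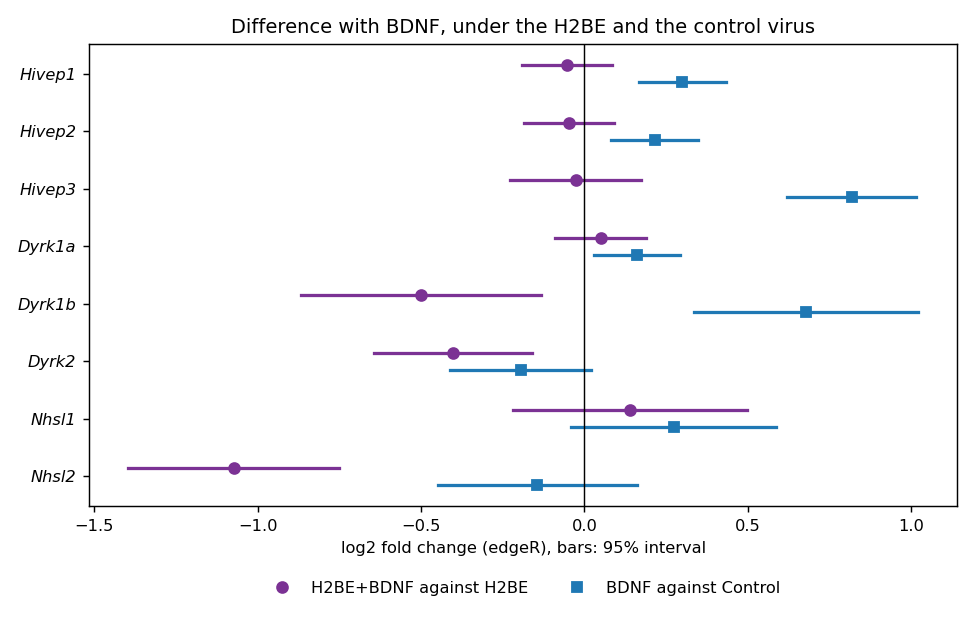
Log2 fold change (horizontal axis) of each of the 8 genes with BDNF, for H2BE+BDNF against H2BE (circles) and BDNF against Control (squares); bars are 95% intervals from edgeR. The 3 HIVEP circles sit near 0 and the squares at 0.30, 0.22 and 0.82; for Nhsl2 the circle is at -1.07 and the square at -0.14.

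The DYRK genes differed among themselves. Dyrk1b (chr7:28179469-28187294, plus strand), also called Mirk and known for keeping cells in a resting state, had 10.2 and 8.66 CPM in H2BE+BDNF, 13.4 and 13.3 CPM in H2BE and 11.9 and 12.4 CPM in BDNF, against 7.46 and 7.15 CPM in Control. It was highest with H2BE or BDNF alone, lowest in Control, and between them with both, with no overlap among the 4 groups. The H2BE and Control samples chose the gene, so this order is a description, and how many other genes separate as fully was not counted. Dyrk1a (chr16:94570010-94695517, plus strand), the kinase gene in the human Down syndrome region, had 124 and 125 CPM in H2BE+BDNF, 122 and 117 CPM in H2BE and 134 and 126 CPM in BDNF, against 112 and 118 CPM in Control. Its samples lay within a narrow band in which H2BE and Control overlapped. Dyrk2 (chr10:118855603-118870209, minus strand), a kinase that also holds a ubiquitin ligase together, had 32.6 and 39.1 CPM in H2BE+BDNF, 48.1 and 45.8 CPM in H2BE and 39.3 and 43.2 CPM in BDNF, against 43.1 and 48.6 CPM in Control. H2BE+BDNF was the lowest group and the H2BE samples lay between the 2 Control samples.

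Dyrk2 was the relative that fell with BDNF under the H2BE virus. It fell by 0.40 between H2BE+BDNF and H2BE on the log2 scale (SE 0.11, adjusted p = 0.0160), lower in 2 of 2 samples, as 1 of the 5 relatives, beside 12.3% of all genes called lower and 25.8% in either direction. Without H2BE+BDNF replicate 2 the log2 fold change was -0.27 (adjusted p = 0.194), and without H2BE replicate 2 it was -0.37 (adjusted p = 0.130). Between BDNF and Control, Dyrk2 had a log2 fold change of -0.20 ± 0.10 (adjusted p = 0.163), and Dyrk1a one of 0.16 ± 0.06 (adjusted p = 0.0581). Dyrk1a passed without BDNF replicate 2 (0.21, adjusted p = 0.0273). The H2BE effect with BDNF minus that without was -0.11 for Dyrk1a (95% interval -0.31 to 0.08) and -0.21 for Dyrk2 (-0.53 to 0.12), and neither passed.

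For Dyrk1b the Control and H2BE samples that chose it enter both BDNF comparisons, so these are descriptions. Its log2 fold change was -0.50 ± 0.17 between H2BE+BDNF and H2BE, and 0.68 ± 0.16 between BDNF and Control. The first ran between -0.629 and -0.395 over the alternatives and was not past the call threshold by DESeq2. In the comparison Dyrk1b was not chosen on, H2BE+BDNF against BDNF, its log2 fold change was -0.31 (95% interval -0.65 to 0.04, adjusted p = 0.485). Of the other DYRK genes, Dyrk3 had 10 and 7.94 CPM in H2BE+BDNF, 9.87 and 7.34 CPM in H2BE, 9.21 and 7.46 CPM in BDNF and 9.78 and 6.80 CPM in Control, so its groups overlapped throughout. Dyrk4 was not tested: it had 0 counts in H2BE+BDNF, H2BE and Control, and 1 and 2 counts in the 2 BDNF samples, which is under the floor of 3 counts (0.212 to 0.593 CPM, from the deepest to the shallowest library).

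Dyrk1b has 2 RefSeq start windows, shown because it was the short gene among those chosen and because the windows differ. The first, chr7:28179233-28179532, spans the outer start of the gene, and the second, chr7:28180066-28180365, lies within it (plus strand, capitals as above).
Dyrk1b, first window: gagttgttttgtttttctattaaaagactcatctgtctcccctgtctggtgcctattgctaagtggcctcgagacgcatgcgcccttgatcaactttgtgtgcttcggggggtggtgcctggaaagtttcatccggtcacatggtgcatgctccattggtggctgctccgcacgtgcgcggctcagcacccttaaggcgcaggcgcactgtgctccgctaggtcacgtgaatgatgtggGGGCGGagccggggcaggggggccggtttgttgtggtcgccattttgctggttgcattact
Dyrk1b, second window: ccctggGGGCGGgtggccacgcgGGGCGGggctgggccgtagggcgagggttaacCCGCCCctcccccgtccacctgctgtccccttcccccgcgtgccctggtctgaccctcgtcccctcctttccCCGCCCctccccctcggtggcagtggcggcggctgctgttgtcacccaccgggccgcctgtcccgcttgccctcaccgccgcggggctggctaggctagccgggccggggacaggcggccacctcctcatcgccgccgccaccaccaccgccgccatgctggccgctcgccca
The first was 57.0% G or C with 17 CpG and 1 GC box, and the second 77.3% with 31 CpG and 4 GC boxes. The first also held the E-box CACGTG 2 times, at -80 and -27 from the start, a sequence found in 7.15% of all windows. Matches to the cAMP response element TGACGTCA and to the AP-1 sequence TGANTCA, on both strands, were 0 in the windows of Hivep1, Hivep2, Hivep3 and Dyrk1b; 1.79% and 7.81% of all windows hold them.

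Nhsl2, like Dyrk1b, had its highest values in the H2BE samples. Nhsl2 (chrX:101849385-102092055, plus strand), a little-studied member of the NHS family, had 12.9 and 12.8 CPM in H2BE+BDNF, 24.9 and 29.5 CPM in H2BE and 15 and 13.6 CPM in BDNF, against 14.2 and 17.6 CPM in Control. The 6 samples outside H2BE lay within 12.8 to 17.6 CPM, which is a description, since the H2BE samples chose the gene. Rtl5, annotated on the other strand within Nhsl2, shares 0 exon bases with it. Between H2BE+BDNF and H2BE the log2 fold change of Nhsl2 was -1.07 (95% interval -1.40 to -0.75), and between BDNF and Control -0.14 ± 0.14. The H2BE and Control samples that chose the gene enter these comparisons, so both values are descriptions. The first ran between -1.21 and -0.96 over the alternatives. Nhsl1 (chr10:18318985-18533892, plus strand), whose protein binds the WAVE complex and slows cell migration, had 12.2 and 10.8 CPM in H2BE+BDNF, 10.7 and 10.1 CPM in H2BE and 11.8 and 12.2 CPM in BDNF, against 10.3 and 9.93 CPM in Control. Its samples with BDNF lay little above those without, at the closest 10.8 CPM in H2BE+BDNF replicate 3 against 10.7 CPM in H2BE replicate 2. How many other genes separate in this way was not counted, and Nhsl1 passed the test in no comparison. The log2 fold change was 0.14 between H2BE+BDNF and H2BE (95% interval -0.22 to 0.50) and 0.27 between BDNF and Control (-0.04 to 0.59).

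Of the other NHS-family genes, Nhs passed the test with BDNF under both viruses and Nhsl3 under the control virus. Nhs, the X-linked gene mutated in Nance-Horan syndrome, had 23.3 and 23.8 CPM in H2BE+BDNF and 22.9 and 23 CPM in BDNF, against 17.5 and 14.9 CPM in H2BE and 16.7 and 15.5 CPM in Control. It rose with BDNF under both viruses, by 0.52 ± 0.13 between H2BE+BDNF and H2BE (adjusted p = 0.00829) and 0.48 ± 0.12 between BDNF and Control (adjusted p = 0.00548). DESeq2 did not make the call between H2BE+BDNF and H2BE (adjusted p = 0.0505). Without H2BE replicate 3 the first value was 0.42 (adjusted p = 0.0867). Nhsl3 rose by 0.43 ± 0.13 between BDNF and Control (adjusted p = 0.0204) and did not pass between H2BE+BDNF and H2BE (0.28 ± 0.14, adjusted p = 0.165), where correcting for length and GC content gave a call (0.40, adjusted p = 0.0454). The first call was not made by DESeq2 (adjusted p = 0.109) and did not hold when any 1 of 3 libraries was left out: Control replicate 1 (adjusted p = 0.0763), Control replicate 2 (0.103) or BDNF replicate 1 (0.0739). Nhsl2 and Nhs are on the X chromosome. Xist, the RNA of the silent X of female cells, averaged 512 CPM in H2BE+BDNF, 558 CPM in H2BE, 488 CPM in BDNF and 445 CPM in Control, and 4 Y genes had counts in every sample, so each sample held RNA from cells of both sexes. Kdm5d, a Y gene, was the 1 gene of these 5 that passed a test, between BDNF and Control; the part of this in the Nhsl2 values was not tested.

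Most calls among genes that work with these families were in the BDNF comparisons, and so were most calls over all genes. Of all genes, 25.8% passed between H2BE+BDNF and H2BE and 31.4% between BDNF and Control, against 2.13% between H2BE and Control. With BDNF present, 0 genes passed between H2BE+BDNF and BDNF in each of 4 lists, namely 14 kappa-B and HIVEP partners, 16 tested NFAT, calcineurin and DYRK partners, 11 tested sister kinases of DYRK, and 19 tested WAVE and Arp2/3 genes, beside 0.0223% of all genes. Without BDNF replicate 1 the counts there were 0 of the HIVEP list, 1 of the DYRK list, 3 of the sister kinases and 1 of the WAVE and Arp2/3 genes. The HIVEP list had 3 genes higher and 0 lower between H2BE+BDNF and H2BE, and the same counts between BDNF and Control. Over all genes 13.4% were called higher and 12.3% lower in the first of these comparisons, and 16.8% higher and 14.6% lower in the second. The somatostatin receptor gene Sstr2 averaged 38.7 ± 0.50 CPM in H2BE+BDNF and 18.3 ± 1.9 CPM in H2BE (SD, n = 2 each), and 40.1 ± 1.1 CPM in BDNF and 19.2 ± 1.6 CPM in Control. Jun, an AP-1 subunit that mouse Schnurri-3 binds, rose by 0.61 between H2BE+BDNF and H2BE (adjusted p = 7e-05) and by 0.70 between BDNF and Control (adjusted p = 5.05e-06). The list's median log2 fold change was 0.16 and 0.18 in these comparisons, beside 0.00 and -0.01 over all genes. Wwp1, a ubiquitin ligase, was the other gene, and lost its call between H2BE+BDNF and H2BE without H2BE replicate 2 (adjusted p = 0.0641).

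Of the 16 tested DYRK partners, 3 were higher and 2 lower between H2BE+BDNF and H2BE, and 5 higher and 4 lower between BDNF and Control. Beside these, 13.4% of all genes were called higher and 12.3% lower in the first comparison, and 16.8% higher and 14.6% lower in the second. Rcan2, an inhibitor of calcineurin, averaged 323 ± 3.5 CPM in H2BE+BDNF and 197 ± 6.8 CPM in H2BE, and 365 ± 49 CPM in BDNF and 227 ± 7.6 CPM in Control. Nfat5, the NFAT factor of the response to osmotic stress, rose by 0.79 ± 0.11 between BDNF and Control, and Dcaf7, an adaptor of DYRK1A, fell by 0.26 between H2BE+BDNF and H2BE (adjusted p = 0.00136). The list's medians were 0.02 and 0.13. Without H2BE+BDNF replicate 2 the first comparison had 2 calls in all, and without Control replicate 1 the second had 6.

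Among the sister kinases Hipk2, a nuclear kinase of the DYRK group, was the gene called in the most comparisons. It averaged 69.9 ± 6.4 CPM in H2BE+BDNF, 47.6 ± 3.7 CPM in H2BE, 81.6 ± 0.45 CPM in BDNF and 34.2 ± 4.3 CPM in Control. It rose between BDNF and Control (1.21, adjusted p = 1.22e-07) and between H2BE+BDNF and H2BE (0.56, adjusted p = 0.000628). It was also higher between H2BE and Control (0.47, adjusted p = 0.0330), and the H2BE effect with BDNF minus that without was -0.64 (adjusted p = 0.0431). With the length and GC correction neither of these last calls was made (adjusted p = 0.129 and 0.222). With the replicate number added to the fit, the call between H2BE and Control was not made (adjusted p = 0.145). The third call did not hold when Control replicate 1 (adjusted p = 0.470) or either H2BE library (0.203 without replicate 2 and 0.173 without replicate 3) was left out. The fourth did not hold without Control replicate 1 (0.339), either H2BE library (0.178 and 0.121 in the same order) or either H2BE+BDNF library (0.0559 and 0.171). The list had 2 genes higher and 2 lower between H2BE+BDNF and H2BE, and 3 higher and 1 lower between BDNF and Control, with 1 call left in the first without H2BE replicate 3 and 2 in the second without Control replicate 2. Its medians were 0.03 and 0.19. These counts are of 11 tested genes. Of all genes 13.4% were called higher and 12.3% lower in the first comparison, and 16.8% higher and 14.6% lower in the second.

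Of the 19 tested WAVE and Arp2/3 genes, 7 were higher and 1 lower between H2BE+BDNF and H2BE, and 7 higher and 2 lower between BDNF and Control. The shares over all genes were 13.4% higher and 12.3% lower in the first comparison, and 16.8% higher and 14.6% lower in the second. Wasf1, a WAVE protein of neurons, averaged 151 ± 0.68 CPM in H2BE+BDNF and 213 ± 3.1 CPM in H2BE, and 142 ± 4.7 CPM in BDNF and 208 ± 9.4 CPM in Control. Arpc5l, a subunit of the Arp2/3 complex, averaged 108 ± 0.89 CPM in H2BE+BDNF, 68.6 ± 4.3 CPM in H2BE, 106 ± 2.7 CPM in BDNF and 89.4 ± 0.0085 CPM in Control. Arpc5l was the list's single call between H2BE and Control, where it fell by 0.35 (adjusted p = 0.0246), beside 0.803% of all genes called lower, and was lost without any 1 of the 4 libraries compared (adjusted p 0.0603 to 0.358). The list's medians were 0.12 and 0.08. Without Control replicate 1, 3 genes of the list passed between BDNF and Control, and without H2BE replicate 2, H2BE replicate 3 or H2BE+BDNF replicate 3, 5 passed between H2BE+BDNF and H2BE.

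Per length, Dyrk1a, Hivep2 and Hivep1 were the most abundant of the 8 genes. Their levels over the 8 samples averaged 14.8, 13.4 and 13.3 CPM per kb of merged exons, with ranges of 13.6 to 16.3, 11 to 14.8 and 10.7 to 14.8, which overlap. Dyrk2 followed at 6.80 CPM per kb (5.22 to 7.78) and Dyrk1b at 3.91 (2.65 to 4.97), and neither range overlaps its neighbour above. Hivep3 stood at 2.39 CPM per kb (1.38 to 2.81), overlapping Dyrk1b. Nhsl2 at 1.04 (0.758 to 1.74) and Nhsl1 at 0.970 (0.875 to 1.08) were lowest and overlapped each other. With the longest transcript in place of merged exons, Nhsl1 (1.5) stood above Nhsl2 (1.36).

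The median log2 fold change between H2BE and Control rose with gene length, and 4 of the 8 genes are in the longest decile of tested genes. By merged exon length Hivep3 exceeded 98.5% of tested genes, Nhsl2 98.2%, Hivep2 95.9% and Nhsl1 92.6%, and Dyrk1b exceeded 22.6%. Between H2BE and Control the median log2 fold change was 0.12 in the longest decile and -0.15 in the shortest, and between BDNF and Control it was 0.14 and -0.14. With BDNF the trend had the other sign and was smaller: between H2BE+BDNF and BDNF the medians were -0.06 and 0.04. Ranks of Hivep3, Nhsl2 and Dyrk1b between H2BE and Control are a description, since that contrast chose them. Within its own decile Hivep3 had 11 of 1342 genes above it between H2BE and Control, Nhsl2 had 15 of 1342, Dyrk1b 21 of 1342, Hivep1 114 of 1341 and Hivep2 329 of 1342. After the length and GC correction the H2BE against Control differences were 0.69 for Hivep3, 0.66 for Nhsl2, 0.89 for Dyrk1b, 0.25 for Hivep1 and 0.12 for Hivep2, and 20 genes in all were called in place of 287.

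**Figure D4:**
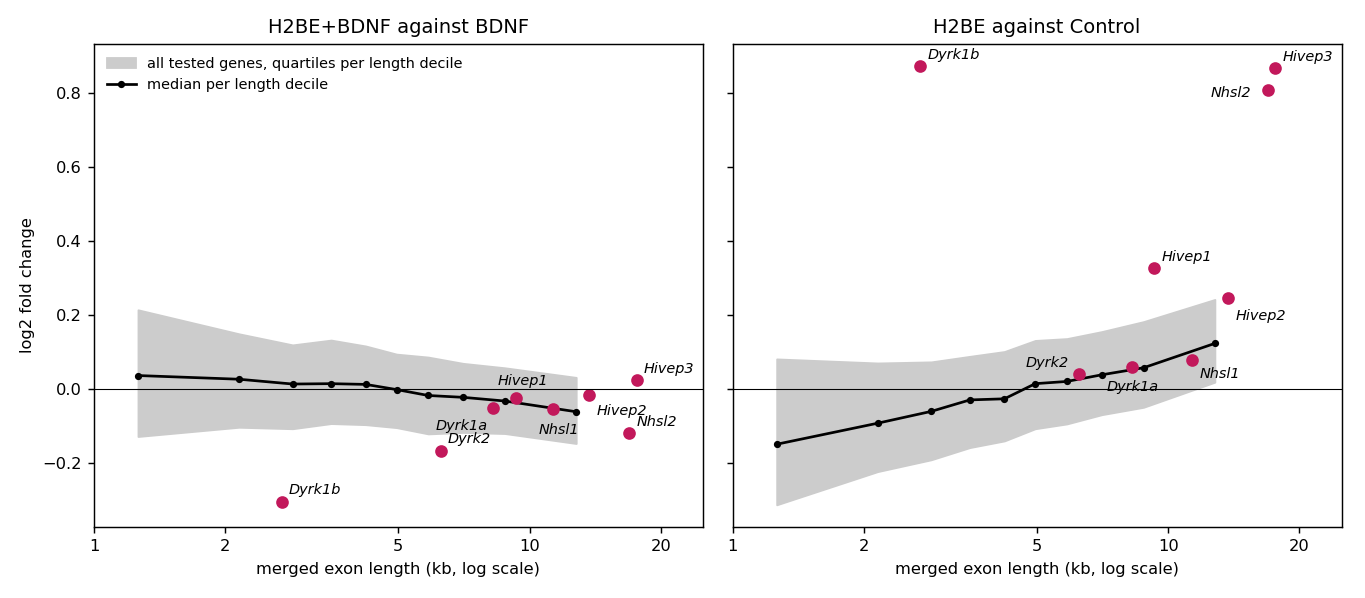
Log2 fold change (vertical axes) against merged exon length in kb (log axis) for H2BE+BDNF against BDNF (left) and H2BE against Control (right); the line joins the medians of the length deciles of tested genes, the band their quartiles, and points are the 8 genes. On the right the median climbs with length to 0.12, and Dyrk1b, Hivep3 and Nhsl2, chosen on that contrast, lie above the band.

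The genes whose log2 CPM ran most like those of the chosen genes were ranked by Pearson correlation over the 8 libraries, among 10697 genes averaging 5 CPM or more, as a description. For Hivep3 they were Sipa1l1 (r = 0.984), Hivep1 (0.981) and Srrm2 (0.979), with Hivep2 at rank 31 (0.934). Sipa1l1, a synaptic Rap GTPase activator, averaged 129 CPM in H2BE+BDNF, 131 CPM in H2BE, 138 CPM in BDNF and 102 CPM in Control, so Control was its lowest group too. For Nhsl2 they included Piezo1 (0.984), a mechanically gated ion channel, and Emd (0.981), the nuclear envelope protein emerin. Emd averaged 58.3 CPM in H2BE+BDNF, 65.5 CPM in H2BE, 61.7 CPM in BDNF and 60.3 CPM in Control. After the length and GC correction r was 0.885 for Piezo1 and 0.515 for Emd. For Dyrk1b they were Fam131b (0.958), Apc (0.951) and Mycbp2 (0.950). After the length and GC correction r was 0.973 for Fam131b and turned negative for Apc (-0.359) and Mycbp2 (-0.512). The genes compared in this way share the same libraries, groups and depths.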

How the data were processed

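PolyA RNA sequencing gave 10 libraries of 4 groups, all with a column in both deposited tables. The authors deposited raw counts per Ensembl gene for 48526 genes. They also deposited normalized signal values, in which each library's counts are divided by 1 size factor, used here for gene symbols only. The submitters' processing notes name the mouse build mm10, SAMtools, DESeq2 and deepTools. For the aligner, the counter and the use of strand no source used here gives a name.

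The counts were filtered with filterByExpr (minimum count 10, minimum total 15), scaled by TMM and tested with edgeR 4.0.16 (quasi-likelihood F test, R 4.3.3, limma 3.58.1) in 1 fit with a mean per group. P-values were adjusted by Benjamini-Hochberg over all 13452 tested genes in each comparison, and genes called at 0.05. The test was first run on simulated counts. BDNF replicate 3 and Control replicate 3 exceeded the first replicates at 0 genes and were left out of the fit. DESeq2 1.42.0 and the other settings of the closing section were alternatives. Log2 CPM used a prior count of 2, and the length and GC correction a lowess curve of span 0.3.

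Total counts ran between 5058074 and 14142545, so 3 counts are 0.212 to 0.593 CPM; this covers counting error only. Gene coordinates and lengths are GENCODE M21 (GRCm38), start windows RefSeq (GRCm38.p6), where 7 of the 8 genes had one and Nhsl2 is named only. The longest shared exon stretch with another annotated gene was 692 bases, of Hivep2, and that gene had 15 counts in all. Named beside the 8 genes are the other genes of the 3 families, H2bc21, up to 4 called genes of each list with the smallest p per comparison, and for each chosen gene the 3 most correlated genes, of which 1 is not reported here. Members, lists and rules were chosen with earlier results of these data known.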

Additional observations from a re-analysis of the deposited data

How the results depend on the processing

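Over 18 settings 0 of the 8 genes passed between H2BE+BDNF and BDNF in every one, although the count over all genes, 3, was 10 by DESeq2, 216 without the filter, 24 with all 10 libraries, 1 with replicates 2 and 3 in every group and 1 with only the groups compared. Leaving out 1 replicate at a time gave 1 to 764 genes. Between H2BE and Control the 287 genes became 559 without the filter, 1611 with all 10 libraries, 1130 with only the groups compared, 20 with the length and GC correction, and 2 to 890 with 1 replicate left out. The 8 genes' count there, 4, was 2 by DESeq2, 1 with the length and GC correction and 0 to 5 with 1 replicate left out. Between BDNF and Control 4225 genes became 2680 by DESeq2, 6465 with all 10 libraries and 2278 to 4499 with 1 replicate left out, and the 8 genes' count, 4, became 1 to 5. Between H2BE+BDNF and H2BE 3466 genes became 1818 to 4157, and the 8 genes' count, 3, became 1 to 3. For the difference of H2BE effects 155 genes became 440 without the filter, 1169 with all 10 libraries, 349 with replicates 2 and 3, 5 with the correction and 0 to 897, and the 5 relatives' count, 0, became 2 with all 10 libraries, 1 with replicates 2 and 3 and 0 to 1. Where a group kept 1 library, that sample was assumed to vary like the other groups. The fit with all 10 libraries counts the subsets of BDNF and Control as separate replicates, so its counts do not rest on more distinct samples. The cause of these changes was not tested. In the 8 genes' counts, Hivep3, Dyrk1b and Nhsl2 between BDNF and Control are descriptions, since their Control samples chose them. So are the same genes between H2BE+BDNF and H2BE, since their H2BE samples chose them. The counts between H2BE and Control are descriptions as well.

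The replicate numbers did not pair the samples: deviations from the group means correlated at -0.17 for BDNF and Control and -0.30 for H2BE+BDNF and H2BE. With a replicate block, 119 genes were called between H2BE+BDNF and BDNF (48 with replicates 2 and 3 in every group, 89 with the length and GC correction), 140 between H2BE and Control (26 with the correction) and 245 for the difference (344 and 20). With the block 1 of the 8 genes was called between H2BE and Control, also with the correction, and 4 with the block on replicates 2 and 3 (341 genes in all); 1 relative was called for the difference with replicates 2 and 3. A crossed pairing, chosen after seeing the data, gave 4886 genes between BDNF and Control and 3813 between H2BE+BDNF and H2BE.

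The log2 fold changes that turned sign were of genes not called on either side. Between H2BE+BDNF and BDNF, Hivep1 was 0.013 with the length and GC correction, 0.035 with block and correction and -0.073 to 0.017 with 1 replicate left out, and Hivep2 was 0.039, 0.058 and -0.068 to 0.027 in the same settings. Hivep3 there was -0.034 with all 10 libraries, -0.051 with replicates 2 and 3 and -0.053 with the block on these. Dyrk1a was 0.012 and Nhsl1 0.056 with block and correction. With 1 replicate left out Nhsl1 ran between -0.15 and 0.025, Dyrk3 between -0.011 and 0.33 and Nhsl3 between -0.027 and 0.167. Between BDNF and Control, Dyrk3 ran between -0.261 and 0.222. Between H2BE+BDNF and H2BE, Hivep3 was 0.031 with the correction, 0.032 with block and correction and -0.069 to 0.018 with 1 replicate left out, and Dyrk3 ran between -0.146 and 0.294. For the difference Nhsl1 was 0.025 with the correction and 0.026 with block and correction. Depth limits Dyrk1b, Nhsl1 and Nhsl2 most, the genes with the lowest CPM of the 8.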
